A study of Mus musculus with 34 samples.

Results

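The comparison asks what loss of the IGF-1 receptor adds in muscle that already lacks the insulin receptor. For each gene the added effect was the change in MIGIRKO muscle against its floxed control, minus the change in MIRKO muscle against its own floxed control, on the log2 scale. It was tested in 13646 genes and uses 16 of the 34 libraries of the series, chosen by sample title. MIRKO mice (n = 4) lack the insulin receptor in muscle and were compared with IRlox mice (n = 3), which carry the floxed insulin receptor gene without the knockout. MIGIRKO mice (n = 6) lack both receptors in muscle and were compared with IRIGFRlox mice (n = 3), which carry both floxed genes.

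Acta1-Cre, driven by the skeletal actin promoter, made the deletions in MIRKO and MIGIRKO mice. The mice were male unless the study states otherwise, their ages are not given in the sources used here, and all had a mixed background of C57 and 129 strains. Each line was kept as its own colony, with floxed littermates as controls, so that an effect of the second receptor and a difference between the colonies cannot be told apart in MIGIRKO against MIRKO directly, while the added effect subtracts the difference between the floxed controls. A response that differs between colonies for reasons other than the second receptor cannot be told apart from the added effect either. MIGIRKO and IRIGFRlox mice were heterozygous for the Nnt gene, a mitochondrial transhydrogenase, whereas MIRKO and IRlox mice were mixed, per the study's design text. RNA came from quadriceps and gastrocnemius powdered together, and with such bulk RNA fewer cells of a type and less RNA per cell cannot be told apart. Nothing in the labels pairs mice across groups.

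Insulin and IGF-1 act through closely related tyrosine kinase receptors that share ligands, substrates and the downstream kinase Akt. Active Akt holds the FoxO transcription factors out of the nucleus, where in fasted or unstimulated muscle they raise ubiquitin ligases of protein breakdown. With both receptors in place each can carry part of the other's signal, which is why muscles lacking 1 receptor and muscles lacking both are compared.

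Total counts in the 16 libraries ran from 3880455 to 7581198. The share of all counts taken by Myh4, the fast IIb myosin, was 2.07 to 4.10% in MIGIRKO, 3.11 to 5.19% in MIRKO, and 5.29 to 6.91% over the floxed libraries. Levels are given as CPM, counts scaled to a common library total after correction by the trimmed mean of M values (TMM), and scaling factors were 1.17 to 1.32 in MIGIRKO, 1.05 to 1.27 in MIRKO and 0.866 to 0.986 in the floxed groups. A gene is called at a Benjamini-Hochberg adjusted p under 0.05 in edgeR's quasi-likelihood test over all genes tested, and errors of log2 values are standard errors (SE).

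The libraries labelled MIRKO 4 and MIGIRKO 6 stood apart from their groups. Across genes, the profile of MIRKO 4 was most like that of MIGIRKO 3 (Pearson's r = 0.981), and the profile of MIGIRKO 6 was most like that of MIRKO 3 (r = 0.973). The 40 genes with the smallest p between the floxed groups gave a scale whose ends are the IRIGFRlox mean (0) and the IRlox mean (1). The position of MIRKO 4 on it was 0.534, against 0.954 to 0.990 for the other MIRKO libraries, and that of MIGIRKO 6 was 0.970, against 0.514 to 0.719 for the other MIGIRKO libraries. Those MIGIRKO libraries did not lie at the end of their own floxed controls, so a position on the scale does not assign a colony. An exchange of these 2 labels would change what every value of MIRKO 4 and MIGIRKO 6 means, and whether one took place was not tested. Both were used under their labels in the fit of all libraries, and results are also given without them. Since they are named for where they lie in these same data, calls made without them are not independent evidence.

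Insr, the insulin receptor, was low in both knockouts. Its level was 172, 171 and 146 CPM in IRlox and 42.8, 47.5, 42.5 and 50.7 CPM in MIRKO. IRIGFRlox had 171, 159 and 191 CPM, and MIGIRKO ran from 40.7 over a median of 52.2 to 69.8 CPM. Neither knockout overlapped its control, including the libraries labelled MIRKO 4 and MIGIRKO 6, so that Insr does not separate the 2 knockout groups. Its added effect was 0.27 ± 0.23 without those 2 libraries (edgeR's quasi-likelihood test, adjusted p = 0.63).

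Igf1r, the IGF-1 receptor, did not check the labels. It was counted at 18.0, 16.8 and 12.5 CPM in IRlox, 18.7, 21.5, 29.2 and 19.0 CPM in MIRKO, and 20.3, 18.9 and 16.5 CPM in IRIGFRlox. MIGIRKO ran from 15.1 over a median of 17.3 to 25.7 CPM and overlapped all other groups. The added effect was -0.50 ± 0.31 with all libraries and -0.68 ± 0.31 without the 2 (adjusted p = 0.60 and 0.26). In MIGF1RKO, the single IGF-1 receptor knockout, Igf1r had 7.57 to 11.2 CPM against 13.5 to 20.4 in its IGFRlox controls, a change of -0.75 ± 0.20 that was not called (adjusted p = 0.057). A count summed over a gene does not show whether a floxed exon was removed.

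With all libraries as labelled, none of the 13646 genes was called for the added effect (percent called 0), the smallest adjusted p being 0.18 in edgeR's quasi-likelihood test. An unadjusted p under 0.05 was reached by 1421 genes (10.4%), and DESeq2 called 39. Without the 2 libraries 457 of 13466 genes (3.39%) were called, 172 higher (1.28%) and 285 lower (2.12%). Leaving out MIRKO 4 alone gave 145 calls and leaving out MIGIRKO 6 alone gave 13. The direct difference, MIGIRKO minus MIRKO with no control, went from 0 calls to 1106 (8.21%), 424 higher (3.15%) and 682 lower (5.06%). For comparison, the MIRKO change was called for 170 genes (1.25%) with all libraries and 33 (0.245%) without the 2, and the MIGIRKO change for 4603 (33.7%) and 4512 (33.5%). The direct difference and the added effect share the knockout libraries and are given side by side only.

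How the libraries lay can be seen gene by gene. The genes named first are those with the smallest adjusted p among the calls without the 2 libraries, and their sizes are a description of the genes chosen.

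Acsl6, a long-chain acyl-CoA synthetase (chromosome 11, 54303798 to 54364756 in GRCm38), was low in MIGIRKO 1 to 5. Its level was 36.3, 30.3 and 33.0 CPM in IRlox and 25.7, 35.5 and 20.2 CPM in MIRKO 1 to 3, with MIRKO 4 at 5.63. IRIGFRlox had 50.1, 38.5 and 47.5 CPM, MIGIRKO 1 to 5 ran from 5.40 over a median of 8.13 to 8.45 CPM, and MIGIRKO 6 had 19.0. MIRKO 4 lay within the range of MIGIRKO 1 to 5, and MIGIRKO 6 lay just under the lowest of MIRKO 1 to 3. The added effect was -1.62 ± 0.46 with all libraries (edgeR's quasi-likelihood test, adjusted p = 0.25) and -2.28 ± 0.27 without the 2 (adjusted p = 1.2e-05, 95% confidence interval -2.83 to -1.74).

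Smtnl2, a smoothelin-like protein, followed the same order. It had 305, 316 and 221 CPM in IRlox, 245, 248, 172 and 64.8 in MIRKO 1 to 4, and 414, 391 and 532 in IRIGFRlox. MIGIRKO 1 to 5 ran from 60.7 to 85.7 CPM and MIGIRKO 6 had 201. Only the 2 doubtful libraries broke the separation of the knockout groups, and the added effect was -1.60 ± 0.45 with all libraries (adjusted p = 0.25) and -2.24 ± 0.27 without them (adjusted p = 1.2e-05).

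Kcng4, a modulatory potassium channel subunit, was lower in both knockouts, and by more in MIGIRKO. IRlox had 75.6, 70.2 and 86.5 CPM and MIRKO 1 to 3 had 31.5, 42.0 and 13.7, against 5.04 in MIRKO 4. IRIGFRlox had 80.3, 82.3 and 72.3 CPM, MIGIRKO 1 to 5 ran from 3.10 to 7.09, and MIGIRKO 6 had 17.1. Without the 2 libraries the MIRKO change was -1.43 ± 0.28, the MIGIRKO change -4.11 ± 0.26 and the added effect -2.68 ± 0.38 (edgeR's quasi-likelihood test, adjusted p = 0.018, 4.0e-12 and 9.8e-05). With all libraries the added effect was -1.77 ± 0.60 (adjusted p = 0.30).

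Rxrg, the retinoid X receptor gamma that partners nuclear hormone receptors in muscle, had 47.7, 40.4 and 26.8 CPM in MIRKO 1 to 3 and 6.19 to 12.7 in MIGIRKO 1 to 5. MIRKO 4 had 9.04 CPM and MIGIRKO 6 had 24.4, against 61.1 to 86.4 in all 6 floxed libraries. Its added effect was -1.52 ± 0.52 with all libraries (adjusted p = 0.30) and -2.22 ± 0.35 without the 2 (adjusted p = 0.00037). Further genes with a lower added effect in the same fit were Golm1, a Golgi membrane protein (-2.07 ± 0.26), Eepd1, an endonuclease family protein (-2.01 ± 0.27), Tfcp2l1, a transcription factor (-3.94 ± 0.58), and Slc40a1, the iron exporter ferroportin (-2.10 ± 0.34). With all libraries they had -1.69, -1.59, -3.22 and -1.42, none called.

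Padi2, a peptidylarginine deiminase that converts arginine to citrulline (chromosome 4, 140906344 to 140952586), was high in MIGIRKO 1 to 5. Its level was 245, 172 and 222 CPM in IRlox, 233, 243 and 279 in MIRKO 1 to 3, and 274, 265 and 228 in IRIGFRlox. MIGIRKO 1 to 5 ran from 691 over a median of 752 to 882 CPM. MIRKO 4 had 785 CPM, inside that range, and MIGIRKO 6 had 174, inside the range of the controls. The added effect was 0.53 ± 0.46 with all libraries (edgeR's quasi-likelihood test, adjusted p = 0.74) and 1.35 ± 0.19 without the 2 (adjusted p = 9.8e-05).

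Etv5, an ETS family transcription factor, had 28.0, 21.5 and 27.2 CPM in IRlox and 29.4, 22.9 and 22.4 in MIRKO 1 to 3. In IRIGFRlox it had 14.8, 19.9 and 17.5 CPM, in MIGIRKO 1 to 5 it had 45.2 to 57.1, and MIRKO 4 and MIGIRKO 6 had 44.5 and 23.1. The added effect was 1.18 ± 0.31 with all libraries (adjusted p = 0.22), and that of 1.59 ± 0.22 without the 2 (adjusted p = 9.1e-05) was the sum of a direct difference of 1.02 ± 0.15 and a lower level in IRIGFRlox than in IRlox by 0.56 ± 0.17. Higher added effects were also called for Cdo1, the cysteine dioxygenase (2.86 ± 0.43), Car5b, a mitochondrial carbonic anhydrase (2.97 ± 0.52), Otulin, a linear ubiquitin deubiquitinase (1.53 ± 0.27), Mirg, a maternally expressed noncoding RNA (3.28 ± 0.59), and Myom3, an M-band protein (1.76 ± 0.33). With all libraries these were 2.15, 2.48, 0.89, 1.15 and 0.87, none called.

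**Figure D1:**
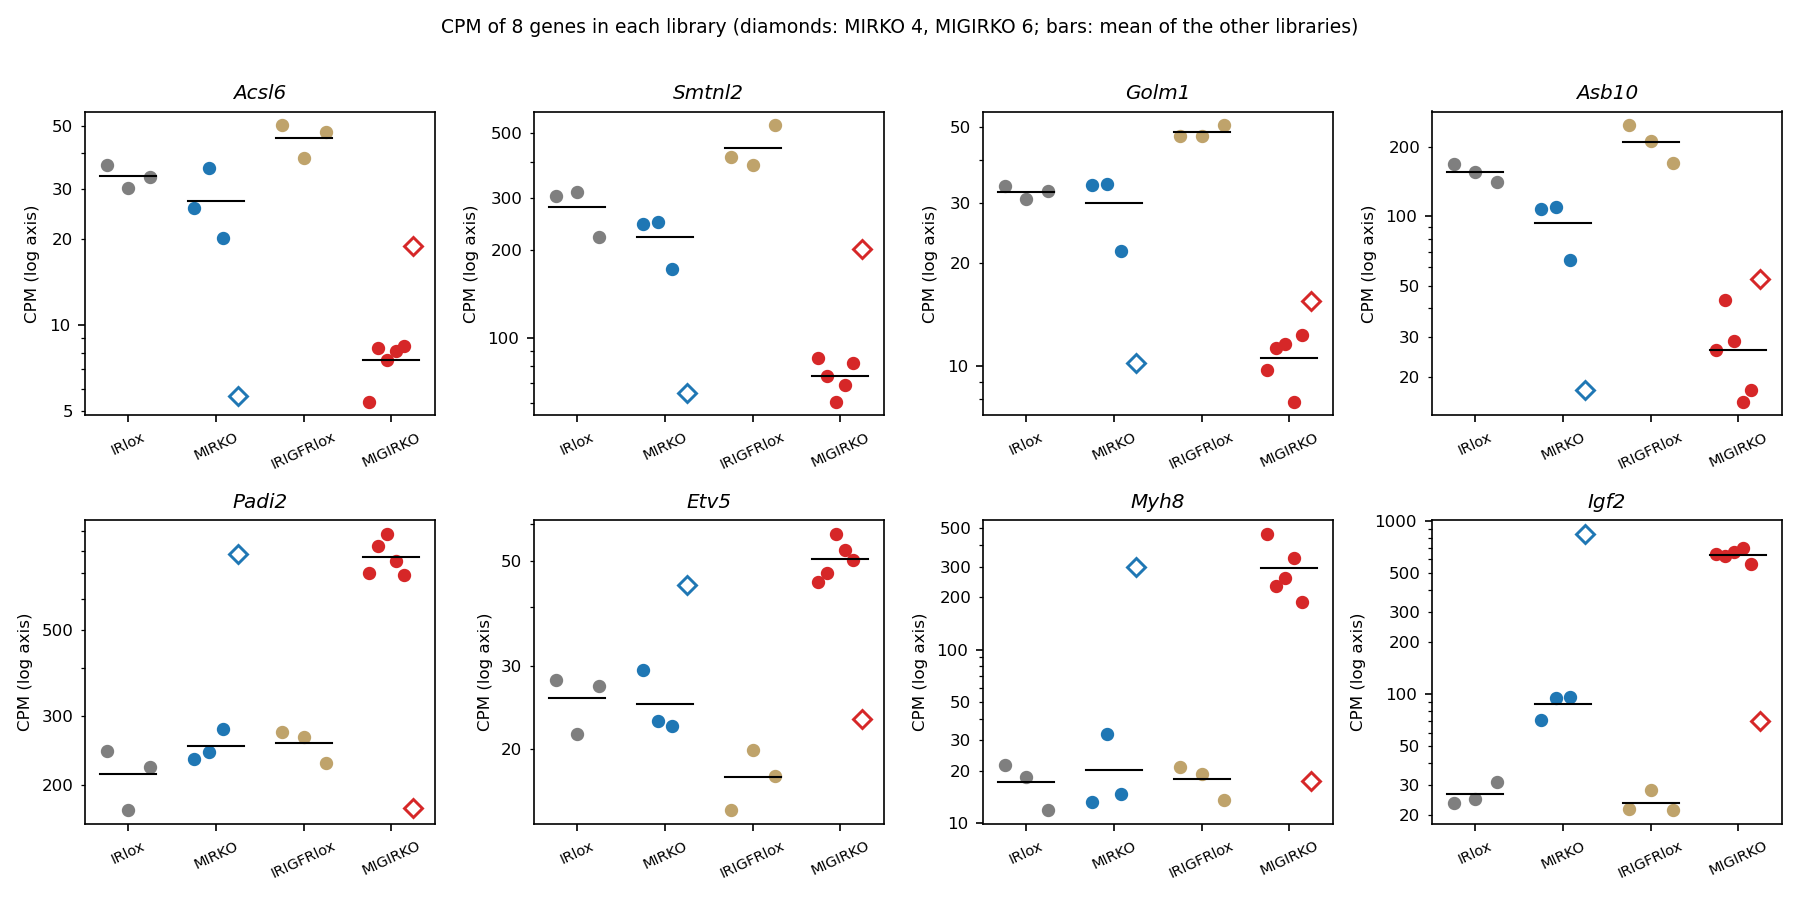
CPM on a log axis for 8 genes in each of the 16 libraries, with circles for libraries, open diamonds for MIRKO 4 and MIGIRKO 6, and bars at the mean of the others. For Padi2 the 5 other MIGIRKO libraries sit between 691 and 882 CPM, MIRKO 4 sits among them at 785, and MIGIRKO 6 sits at 174.

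The titles carry library numbers that fall into 6 runs of consecutive numbers, and 4 of these runs hold 1 MIRKO and 1 MIGIRKO library. They are runs 2, 4 and 5, and run 6, which holds MIRKO 4 and MIGIRKO 6. For Padi2 the MIGIRKO minus MIRKO difference in log2 CPM was 1.82, 1.63 and 1.30 in runs 2, 4 and 5 and -2.17 in run 6. For Acsl6 it was -1.58, -2.07 and -1.22 in the former and 1.69 in run 6. The sign in run 6 was the opposite of that in the other runs for both genes, and run 2, the only one with all 4 groups, gave added effects of 1.20 for Padi2 and -1.92 for Acsl6. Both genes were chosen for calls in the fit that left out the run 6 libraries, so these signs are not independent evidence.

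**Figure D2:**
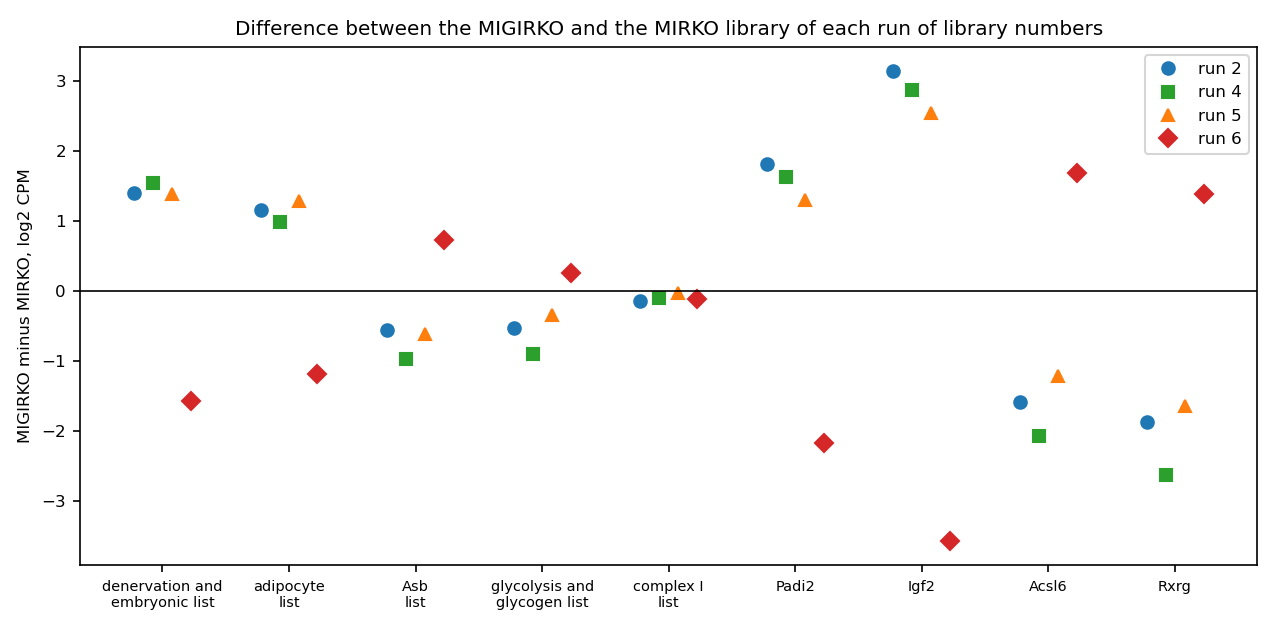
Difference in log2 CPM between the MIGIRKO and the MIRKO library of each of 4 runs, for the mean of 5 gene lists and for 4 genes. Runs 2, 4 and 5 lie on the same side of 0 for each item and run 6, which holds MIRKO 4 and MIGIRKO 6, on the other side, except for the complex I list, where all 4 runs lie at or below -0.03. The 4 genes were chosen for calls made without the run 6 libraries, so their signs are not independent evidence.

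Ligands and receptors came first among the lists. Of 10 tested genes for insulin and IGF receptors, ligands and binding proteins, 1 was called higher and 1 lower without the 2 libraries. Over all genes 1.28% were called higher and 2.12% lower. The list median was 0.57 against 0.00 over all genes. Igf2, the fetal growth factor and ligand of both receptors, had 23.7, 24.8 and 31.2 CPM in IRlox and 21.8, 27.9 and 21.4 in IRIGFRlox. It stood at 70.6, 95.0 and 96.4 CPM in MIRKO 1 to 3 and at 563 to 695 in MIGIRKO 1 to 5. MIRKO 4 had 839 CPM, the highest of the 16 libraries, and MIGIRKO 6 had 69.8. No knockout library overlapped a control, and the added effect was 1.15 ± 0.97 with all libraries (edgeR's quasi-likelihood test, adjusted p = 0.73) and 3.04 ± 0.58 without the 2 (adjusted p = 0.0033).

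Igf1, the circulating and local IGF receptor ligand, was not called (0.80 ± 0.34, adjusted p = 0.22). Igfbp5, an IGF binding protein, was the gene called lower, at -0.89 ± 0.26 with an adjusted p of 0.049 in edgeR's quasi-likelihood test. That call ended when any 1 of 10 further libraries was left out: IRlox 1 (adjusted p = 0.15), IRlox 3 (0.087), MIRKO 1 (0.068), MIRKO 2 (0.18), IRIGFRlox 1 (0.17), IRIGFRlox 3 (0.078) and MIGIRKO 1, 2, 3 and 5 (0.070, 0.060, 0.058 and 0.056).

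In the relay below the receptors 1 of 28 genes was called higher and 1 lower, with a median of 0.08, where 1.28% and 2.12% of all genes were called. The higher one was Grb10, an adapter that binds the insulin receptor (1.07 ± 0.30, adjusted p = 0.039 in edgeR's quasi-likelihood test). Its call ended without IRlox 2 or 3 (adjusted p = 0.063 and 0.15), MIRKO 1 or 2 (0.099 and 0.11), IRIGFRlox 1, 2 or 3 (0.068, 0.060 and 0.10) or MIGIRKO 1, 3 or 4 (0.063, 0.061 and 0.062). Grb14, an adapter that inhibits the active insulin receptor, had 21.0, 20.9 and 21.8 CPM in IRlox, 7.63, 10.6, 5.02 and 2.22 in MIRKO, 18.6, 23.9 and 24.8 in IRIGFRlox, and 1.21 to 4.06 in all 6 MIGIRKO libraries. It was lower in every knockout library than in every control, and the added effect was -1.33 ± 0.45 with all libraries (adjusted p = 0.30) and -1.78 ± 0.41 without the 2 (adjusted p = 0.010), or -1.49 when MIRKO 2 was left out as well (adjusted p = 0.060). Irs1 and Irs2, the main receptor substrates, had added effects of -0.43 ± 0.27 and 0.66 ± 0.34 (adjusted p = 0.49 and 0.34), and Akt2, the muscle Akt isoform of insulin action, 0.31 ± 0.19 (adjusted p = 0.48).

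Among the FoxO factors none was called. The added effects without the 2 libraries were -0.11 ± 0.44 for Foxo1, 0.37 ± 0.28 for Foxo3 and -0.61 ± 0.25 for Foxo4 (edgeR's quasi-likelihood test, adjusted p = 0.95, 0.59 and 0.20). Foxo1 was split within groups, at 81.1 and 76.1 CPM in 2 IRIGFRlox libraries and 30.6 in the third, and from 22.0 to 74.0 CPM in MIGIRKO. In the order of their runs, MIGIRKO 1 to 3 had 74.0, 54.8 and 70.1 CPM and MIGIRKO 4 to 6 had 26.5, 38.0 and 22.0. MIRKO 1 to 3 had 22.2, 29.9 and 36.6 CPM and MIRKO 4 had 70.8, while IRlox had 35.3, 31.4 and 31.9. The part of the runs in this split was not tested. Of 20 FoxO genes and targets 2 were called lower, against 2.12% of all genes, and none higher, and the list median was 0.11.

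Both FoxO targets that were called are muscle ubiquitin ligases of protein breakdown, and without the 2 libraries they fell in MIGIRKO. Fbxo32, or atrogin-1, had 418, 362 and 282 CPM in IRlox, 360, 529, 443 and 227 in MIRKO, and 798, 395 and 945 in IRIGFRlox. MIGIRKO ran from 170 over a median of 277 to 436 CPM. The MIRKO range held that of IRlox, while MIGIRKO overlapped IRIGFRlox only through MIGIRKO 6. Without the 2 libraries the MIGIRKO change was -1.45 ± 0.25, the MIRKO change 0.33 ± 0.29 and the added effect -1.78 ± 0.39 (edgeR's quasi-likelihood test, adjusted p = 6.3e-05, 0.65 and 0.0080). The added effect with all libraries was -1.44 ± 0.41 (adjusted p = 0.25).

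Trim63, or MuRF1, gave an added effect of -2.09 ± 0.46 without the 2 libraries (adjusted p = 0.0083) and -1.54 ± 0.53 with all (adjusted p = 0.30), with 381, 419 and 935 CPM in MIRKO 1 to 3 and 147 to 302 in MIGIRKO 1 to 5. For both ligases the floxed controls differed in level, IRIGFRlox minus IRlox being 1.01 ± 0.29 for Fbxo32 and 0.80 ± 0.34 for Trim63 (adjusted p = 0.19 and 0.40). The direct difference was -0.77 ± 0.26 for Fbxo32 (adjusted p = 0.060) and -1.29 ± 0.30 for Trim63 (adjusted p = 0.0056).

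In the whole list of 16 atrophy ligases 4 were called lower, against 2.12% of all genes, and none higher, with a median of -0.37. The other two were Fbxo40, a ligase that acts on the insulin receptor substrate IRS1 (-1.32 ± 0.22, adjusted p = 0.00059 in edgeR's quasi-likelihood test), and Asb2 (-1.78 ± 0.35, adjusted p = 0.0035). Of 32 proteasome subunits and regulators 1 was called lower, against 2.12% of all genes, and the list median was -0.19. It was the activator Psme4, whose call ended without IRlox 1, IRlox 3, MIRKO 2 or IRIGFRlox 3 (adjusted p = 0.087, 0.060, 0.071 and 0.10 in edgeR's quasi-likelihood test). The mTORC1 list, the growth branch of the pathway, had 1 of 20 called lower, against 2.12% of all genes, and a median of -0.25. That gene was Ddit4l, not called without MIRKO 2 (adjusted p = 0.056 in edgeR's quasi-likelihood test).

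Asb2 led to its family, which was added after its values were seen. Asb proteins carry ankyrin repeats and a SOCS box and serve as substrate adapters of ubiquitin ligases. Of 18 family members 16 were tested, and without the 2 libraries 7 were called lower, against 2.12% of all genes, and none higher, with a median of -0.82. With all libraries none was called, and the median was -0.64. They were Asb2, Asb4, Asb5, Asb10, Asb14, Asb15 and Asb18, and with any 1 further library left out 6 to 8 were called. Asb5 was the least stable, with adjusted p of 0.090, 0.067, 0.092, 0.063 and 0.11 without IRlox 1, IRlox 2, MIRKO 3, IRIGFRlox 1 and IRIGFRlox 3.

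Asb10 had 168, 156 and 141 CPM in IRlox and 107, 110 and 64.5 in MIRKO 1 to 3, with MIRKO 4 at 17.6. IRIGFRlox had 248, 211 and 170 CPM, MIGIRKO 1 to 5 had 15.7 to 43.5, and MIGIRKO 6 had 53.3. The lowest of MIRKO 1 to 3 lay above every MIGIRKO library. Its added effect was -2.27 ± 0.38, beside -1.99 ± 0.31 for Asb15 and -2.01 ± 0.34 for Asb14 (edgeR's quasi-likelihood test, adjusted p = 0.00093, 0.00044 and 0.00085). With all libraries the 3 values were -1.71, -1.55 and -1.42, none called.

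The IRlox family mean lay at 5.84 to 5.89 log2 CPM, that of MIRKO 1 to 3 at 5.43 to 5.68 and that of MIRKO 4 at 4.60. It lay at 5.99 to 6.20 in IRIGFRlox, 4.71 to 5.01 in MIGIRKO 1 to 5 and 5.33 in MIGIRKO 6. MIGIRKO minus MIRKO was -0.56, -0.97 and -0.62 in runs 2, 4 and 5 and 0.73 in run 6.

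A motif and a start site can be shown for 1 gene of the next list, the acetylcholine receptor subunit Chrna1, since its promoter carries the letters CAGCTG, an E-box of the kind bound by myogenic factors such as MyoD and myogenin. The RefSeq window from 250 bases before to 50 bases after the gene's start, on the minus strand at chr2:73580289-73580588 of GRCm38.p6, is printed with both matches in capitals.
Chrna1: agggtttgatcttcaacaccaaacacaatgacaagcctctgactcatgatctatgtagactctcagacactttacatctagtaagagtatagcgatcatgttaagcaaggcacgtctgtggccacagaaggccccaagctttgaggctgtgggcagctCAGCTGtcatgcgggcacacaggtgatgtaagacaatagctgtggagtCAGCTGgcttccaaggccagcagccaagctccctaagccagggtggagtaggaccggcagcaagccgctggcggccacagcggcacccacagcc
CAGCTG reads the same on both strands and was found in 16.3% of 32851 RefSeq promoter windows of this length. Of the 7 called genes of the denervation list 4 had a window, and 1 of them held the letters. The 7 called Asb genes, whose added effects were lower, all had a window, and 3 of them held the letters. A match is a description of the window only.

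Denervation and embryonic genes, which adult fibers express at low levels and raise when the nerve is lost or fibers are rebuilt, made up 1 list of 21 tested genes. Without the 2 libraries 7 of the 21 had a higher added effect, against 1.28% of all genes, and none a lower one, with a median added effect of 1.92. The called genes were Chrna1, Chrnb1 and Chrnd, subunits of the acetylcholine receptor, Myh8, the perinatal myosin, Myog, a myogenic factor, H19, an imprinted noncoding RNA, and Sln, an inhibitor of the calcium pump. With all libraries the median was 0.94 and none was called.

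Fewer members were called when a further library was left out: 2 without IRIGFRlox 3, 3 without IRlox 1, IRlox 3 or MIRKO 2, and 4 without MIGIRKO 1, IRIGFRlox 2 or MIRKO 3. The median stayed between 1.54 and 2.09 over those fits. The list's median change against control was 0.97 in MIRKO and 3.21 in MIGIRKO without the 2 libraries, where 0 and 18 members were called higher against backgrounds of 0.0594% and 16.2% of all genes.

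Chrna1 had 26.9, 15.7 and 31.1 CPM in IRlox and 17.1, 22.4 and 22.0 in IRIGFRlox. It had 61.5, 54.0 and 59.6 CPM in MIRKO 1 to 3, 189 to 313 in MIGIRKO 1 to 5, 354 in MIRKO 4 and 53.8 in MIGIRKO 6. The floxed, MIRKO and MIGIRKO tiers did not overlap once MIRKO 4 and MIGIRKO 6 were set aside, whereas by label the knockout groups overlapped. The added effect was 1.09 ± 0.80 with all libraries (adjusted p = 0.68) and 2.49 ± 0.52 without the 2 (edgeR's quasi-likelihood test, adjusted p = 0.0064).

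Myh8 differed from it in that MIRKO 1 to 3, at 13.2, 32.5 and 14.6 CPM, overlapped both floxed groups, which ran from 11.8 to 21.5 CPM. MIGIRKO 1 to 5 had 188 to 464 CPM, MIRKO 4 had 300 and MIGIRKO 6 had 17.4. The added effect was 1.39 ± 1.16 with all libraries (adjusted p = 0.73) and 3.81 ± 0.70 without the 2 (adjusted p = 0.0023), with a MIRKO change of 0.24 ± 0.51. The list mean over its 21 genes was 4.61 to 4.72 log2 CPM in MIRKO 1 to 3 and 6.02 to 6.27 in MIGIRKO 1 to 5, against 6.44 in MIRKO 4 and 4.87 in MIGIRKO 6.

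Fiber type genes moved both ways, where 1.28% of all genes were called higher and 2.12% lower without the 2 libraries. Of 19 fast fiber genes 2 were called higher, the myosins Myh1 and Myh2 (1.19 ± 0.29 and 1.36 ± 0.37, edgeR's quasi-likelihood test, adjusted p = 0.017 and 0.034), and 3 lower. Those were Myh4 (-1.05 ± 0.30), Casq1, the fast calsequestrin that stores calcium (-1.25 ± 0.34), and Mylk4, a kinase (-2.03 ± 0.52), and the list median was -0.63. The counts in both directions hung on single libraries: leaving out IRlox 3, MIRKO 2 or IRIGFRlox 3 gave 0 lower calls, and IRlox 1, IRlox 2 or IRIGFRlox 2 gave 1. Higher calls numbered 0 without IRlox 1, MIRKO 2, IRIGFRlox 1 or IRIGFRlox 3, and 1 without IRlox 3, MIRKO 3, MIGIRKO 3 or MIGIRKO 4. Of 13 slow fiber genes 4 were called higher, against 1.28% of all genes, and none lower, with a median of -0.12. The count of 4 became 1 without IRlox 3, MIRKO 1, MIRKO 2, IRIGFRlox 1, IRIGFRlox 3 or MIGIRKO 4 and 2 without IRlox 1, IRlox 2 or MIGIRKO 1. That median turned to 0.62 without IRIGFRlox 2 and 0.01 without MIRKO 1, and was -0.39 without IRIGFRlox 1.

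Mstn, or myostatin, a secreted brake on muscle growth, had 51.4, 65.5 and 54.5 CPM in IRlox, 29.4, 39.8, 26.7 and 6.52 in MIRKO, and 65.5, 58.5 and 95.0 in IRIGFRlox. MIGIRKO 1 to 5 had 3.74 to 10.9 CPM and MIGIRKO 6 had 17.0. Every knockout library lay below every control, and the added effect was -1.68 ± 0.56 with all libraries (adjusted p = 0.28) and -2.23 ± 0.45 without the 2 (edgeR's quasi-likelihood test, adjusted p = 0.0045). Its antagonist Fst, or follistatin, was called higher (1.31 ± 0.34, adjusted p = 0.027), and the receptor Acvr1b was called lower (-1.36 ± 0.31, adjusted p = 0.011). In the myostatin and BMP list, 2 of 18 genes were called higher and 3 lower, against 1.28% and 2.12% of all genes, with a median of -0.16. The higher calls numbered 0 without IRlox 1 and 1 without MIRKO 1, 2 or 3, IRIGFRlox 1, 2 or 3, or MIGIRKO 4.

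Without the 2 libraries the 27 tested glycogen and glycolysis genes had a median added effect of -0.58 (-0.34 with all libraries, no call). A lower added effect was called for 5 of them, against 2.12% of all genes, and a higher one for none. Among the 5 were Ppp1r3c, which directs a phosphatase to glycogen, Phka1, the muscle phosphorylase kinase subunit, Pgm1, phosphoglucomutase, and Ldha, lactate dehydrogenase A. Leaving out IRlox 1, MIRKO 2 or IRIGFRlox 3 as well gave 3 calls each.

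Phka1 had 2070, 2070 and 1620 CPM in IRlox, 1430, 2280 and 1020 in MIRKO 1 to 3, and 2130, 1700 and 2210 in IRIGFRlox. MIGIRKO 1 to 5 had 403 to 615 CPM, MIRKO 4 had 467 and MIGIRKO 6 had 757. MIRKO 1 to 3 overlapped the controls and MIGIRKO did not, and the added effect was -1.23 ± 0.39 with all libraries (adjusted p = 0.25) and -1.60 ± 0.31 without the 2 (edgeR's quasi-likelihood test, adjusted p = 0.0024). The values were -2.41 ± 0.52 for Ppp1r3c and -1.19 ± 0.22 for Pgm1 (adjusted p = 0.0074 and 0.0022), and with all libraries -2.03 ± 0.53 and -0.86 ± 0.31 (adjusted p = 0.23 and 0.31). The floxed controls did not overlap for Ppp1r3c, at 652, 220 and 544 CPM in IRlox and 1510, 1080 and 876 in IRIGFRlox. MIRKO 1 to 3 had 322, 385 and 610 CPM of it and MIGIRKO 1 to 5 had 123 to 244. Part of its added effect thus lay in the controls.

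Complex I of the respiratory chain, which takes electrons from NADH, showed no added call in edgeR's quasi-likelihood test. Its 36 tested subunits had a median change of -0.75 in MIRKO and -0.81 in MIGIRKO with all libraries, where 2 (Ndufs1 and Ndufa8) and 21 were called lower against backgrounds of 0.865% and 16.7% of all genes. Both medians were -0.83 without the 2 libraries, with 0 and 19 subunits called lower (backgrounds 0.186% and 17.3%). The different counts do not show a difference between the genotypes, and the test of that difference called 0 of 36 with and without the 2 libraries, with medians of -0.03 and -0.02. Its median without the 2 libraries ran from -0.20 to 0.27 over the other settings, the latter with library totals alone as scaling. DESeq2 called 1 subunit lower without the 2 libraries, and 1 had an unadjusted p under 0.05 in edgeR's quasi-likelihood test.

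The precision of that statement is limited. Per subunit the median SE of the added effect was 0.42 without the 2 libraries, and the 95% confidence interval lay within a 2-fold change either way for 16 of 36 subunits (21 with all libraries). Ndufs1, a core subunit, had 365, 469, 374 and 273 CPM in MIRKO and 264 to 301 in MIGIRKO, against 478 to 575 in the floxed groups, and its added effect of -0.52 ± 0.17 was not called (edgeR's quasi-likelihood test, adjusted p = 0.090). By library the list mean was 5.61 to 6.22 log2 CPM in MIRKO and 5.58 to 6.22 in MIGIRKO, so the groups overlapped almost fully, and run 6 did not stand apart, at -0.12 beside -0.14, -0.10 and -0.03 in runs 2, 4 and 5.

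**Figure D3:**
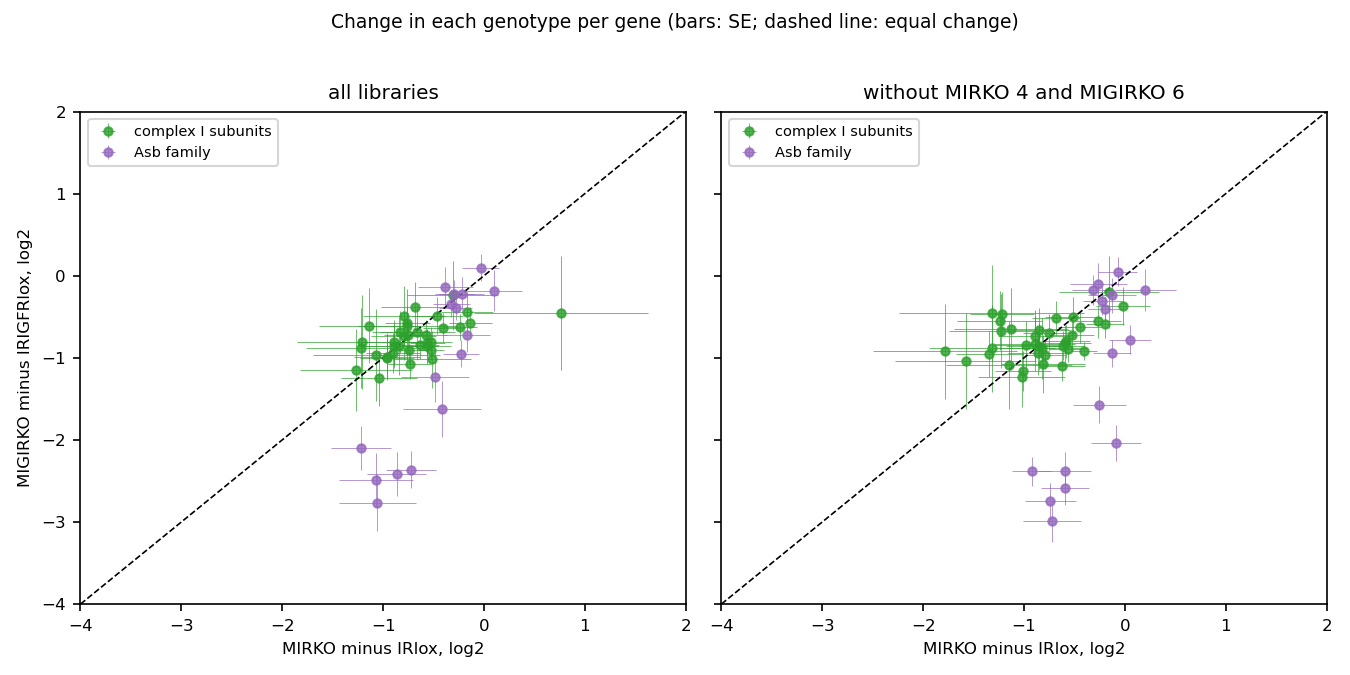
Log2 change against the floxed control in MIRKO (x) and in MIGIRKO (y) for 36 complex I subunits and 16 Asb genes, with SE bars, for all libraries and without MIRKO 4 and MIGIRKO 6. The complex I subunits lie around the line of equal change with medians of -0.75 and -0.81 in the left panel, and the 7 called Asb genes lie below the line in the right panel.

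No call for the added effect was made by edgeR's quasi-likelihood test without the 2 libraries in 6 other energy lists: complex IV (19 genes, median 0.24), complex V (16, -0.06), the mitochondrial mRNAs (13, -0.25), the citrate cycle with pyruvate dehydrogenase (23, -0.28), fatty acid oxidation (24, -0.03) and branched-chain amino acid breakdown (18, -0.34). Unadjusted p under 0.05 were reached by 2, 0, 0, 4, 1 and 1 of their genes. Other settings called 1 gene each in 3 of them, higher in complex IV without MIRKO 1, higher in fatty acid oxidation with library totals alone, and lower in branched-chain breakdown with the run block. Mb, or myoglobin, and Esrrb, an estrogen-related receptor, were called lower among 19 mitochondrial regulators, against 2.12% of all genes. Esrrb was at 2.76 to 4.87 CPM in MIRKO 1 to 3 and 0.963 to 1.51 in MIGIRKO 1 to 5 (-1.92 ± 0.36, adjusted p = 0.0021). Mb (-1.17 ± 0.31, adjusted p = 0.028 in edgeR's quasi-likelihood test) was not called without IRlox 1, IRlox 2, MIRKO 1 or IRIGFRlox 2 (0.065, 0.10, 0.058 and 0.086). Nnt, whose genotype differed between the colonies per the design text, ran from 23.6 to 89.1 CPM in MIRKO and 32.5 to 143 in MIGIRKO. Its added effect was 0.83 ± 0.75 (adjusted p = 0.68 in edgeR's quasi-likelihood test). The controls had 99.6, 132 and 97.6 CPM in IRlox and 32.2, 113 and 146 in IRIGFRlox. The counts thus varied widely within IRIGFRlox and MIGIRKO, both given as heterozygous, and whether they match that genotype was not tested.

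**Figure D4:**
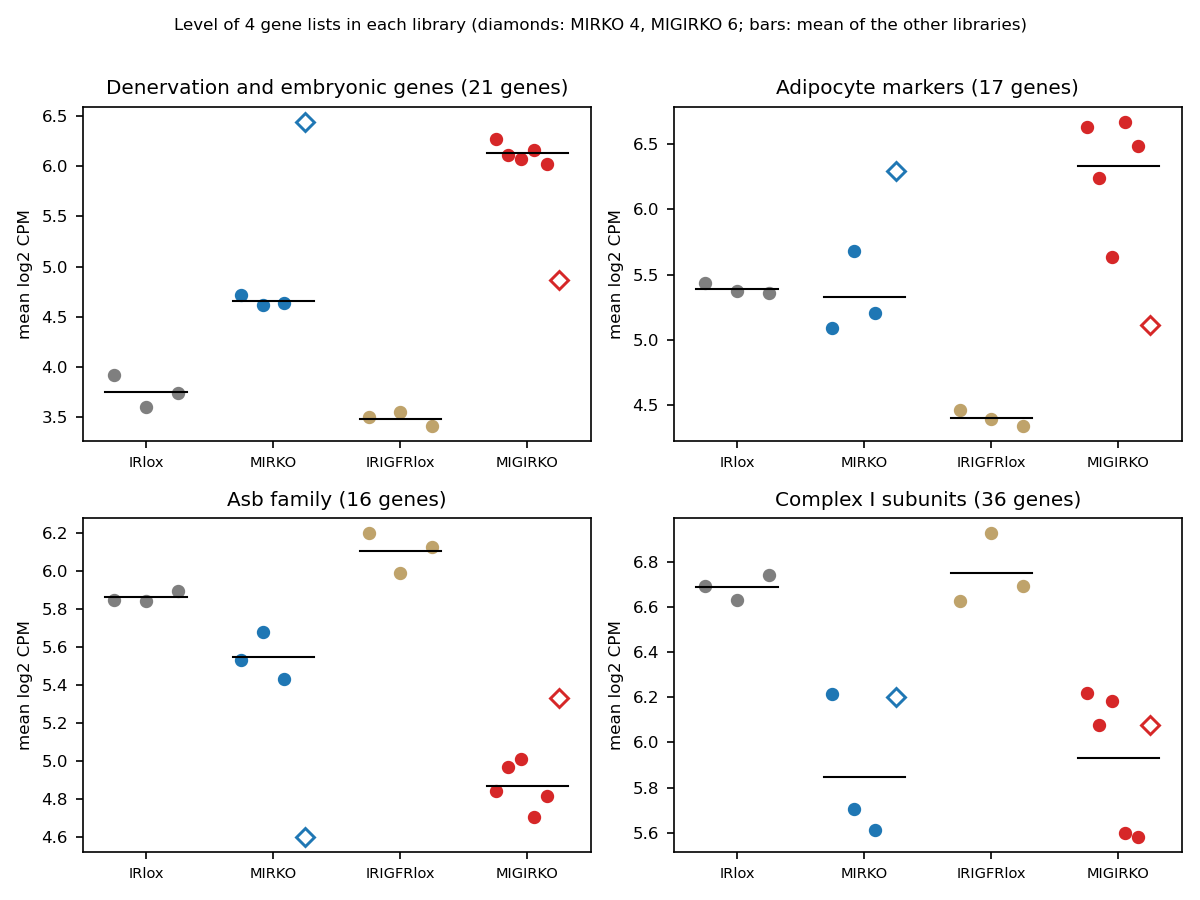
Mean log2 CPM of 4 gene lists in each library, with open diamonds for MIRKO 4 and MIGIRKO 6 and bars at the mean of the other libraries of a group. In the denervation panel MIRKO 4 sits at 6.44 and MIGIRKO 6 at 4.87, each with the other genotype, whereas in the complex I panel MIRKO and MIGIRKO cover 5.61 to 6.22 and 5.58 to 6.22.

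Adipocyte markers moved with these results. Of 17 tested, 10 were called higher without the 2 libraries, against 1.28% of all genes, and none lower, with a median added effect of 2.04 (1.41 with all libraries, no call). Leaving out IRlox 1, IRlox 3, MIRKO 1, MIRKO 3, IRIGFRlox 3 or MIGIRKO 4 as well gave 6 calls each. The markers summed to 3939 to 4318 CPM in IRlox, 3577 to 4648 in MIRKO 1 to 3, 2654 to 3298 in IRIGFRlox and 5451 to 9417 in MIGIRKO 1 to 5, with 7558 in MIRKO 4 and 3230 in MIGIRKO 6. The list mean was 5.36 to 5.44 log2 CPM in IRlox and 4.34 to 4.46 in IRIGFRlox, without overlap. It was 5.09 to 5.68 in MIRKO 1 to 3 and 5.64 to 6.67 in MIGIRKO 1 to 5. Part of the list's added effect thus lay in the floxed controls.

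Adipoq, the adipocyte hormone adiponectin, had 22.1, 30.3 and 25.1 CPM in IRlox but 8.85, 8.42 and 8.13 in IRIGFRlox. MIRKO 1 to 3 had 28.9, 35.9 and 19.6 CPM and MIGIRKO 1 to 5 had 30.3 to 70.1, so the knockout groups overlapped while the controls did not. Its added effect was 2.53 ± 0.58 (edgeR's quasi-likelihood test, adjusted p = 0.012), of which the floxed control difference gave -1.60 ± 0.45 (adjusted p = 0.17) and the direct difference 0.93 ± 0.37 (adjusted p = 0.14). Cfd, Plin1, Cidec and Retn, further fat cell genes, had added effects of 3.63 ± 0.70, 2.70 ± 0.56, 3.16 ± 0.59 and 4.09 ± 0.75. With all libraries the 5 values, Adipoq first, were 2.13, 2.90, 2.25, 2.39 and 2.84, none called. Adipoq, Cfd, Plin1, Cidec and Retn were above 0 in each of the 16 libraries, and the part of fat cells in the other results was not tested.

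Schwann cell and nerve markers had 2 of 15 called higher, against 1.28% of all genes, a median of 1.35 and a median floxed control difference of -0.76. Neither was called without IRlox 2, MIRKO 1 or MIRKO 2, and 1 was without IRlox 3 or IRIGFRlox 1, 2 or 3. Macrophage and immune markers had 0 of 18 called in edgeR's quasi-likelihood test (1 at an unadjusted p under 0.05, and 1 called higher in a fit to the compared groups alone) and a median of 0.71, which was 0.39 without MIGIRKO 5, 0.46 without MIRKO 2 and 1.06 without MIRKO 1, with list means from 4.45 to 5.74 log2 CPM in MIRKO and 4.82 to 6.04 in MIGIRKO. Endothelial markers had 0 of 14 called by edgeR's quasi-likelihood test, none at an unadjusted p under 0.05 either, and a median of 0.14, and none of 11 T and B cell markers passed the filter on low counts. The muscle fiber markers themselves had 2 called higher and 2 lower of 12, against 1.28% and 2.12% of all genes, with a median of -0.46. The higher calls numbered 0 without IRlox 1, MIRKO 2, IRIGFRlox 1 or IRIGFRlox 3 and 1 without IRlox 3, MIRKO 3, MIGIRKO 3 or MIGIRKO 4. The lower calls numbered 3 without MIRKO 3 or MIGIRKO 1, 2 without MIGIRKO 2 and 1 without any other library, and the median was -0.73 without MIRKO 3 and -0.29 without IRIGFRlox 2. Their part in the gene results was not tested.

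**Figure D5:**
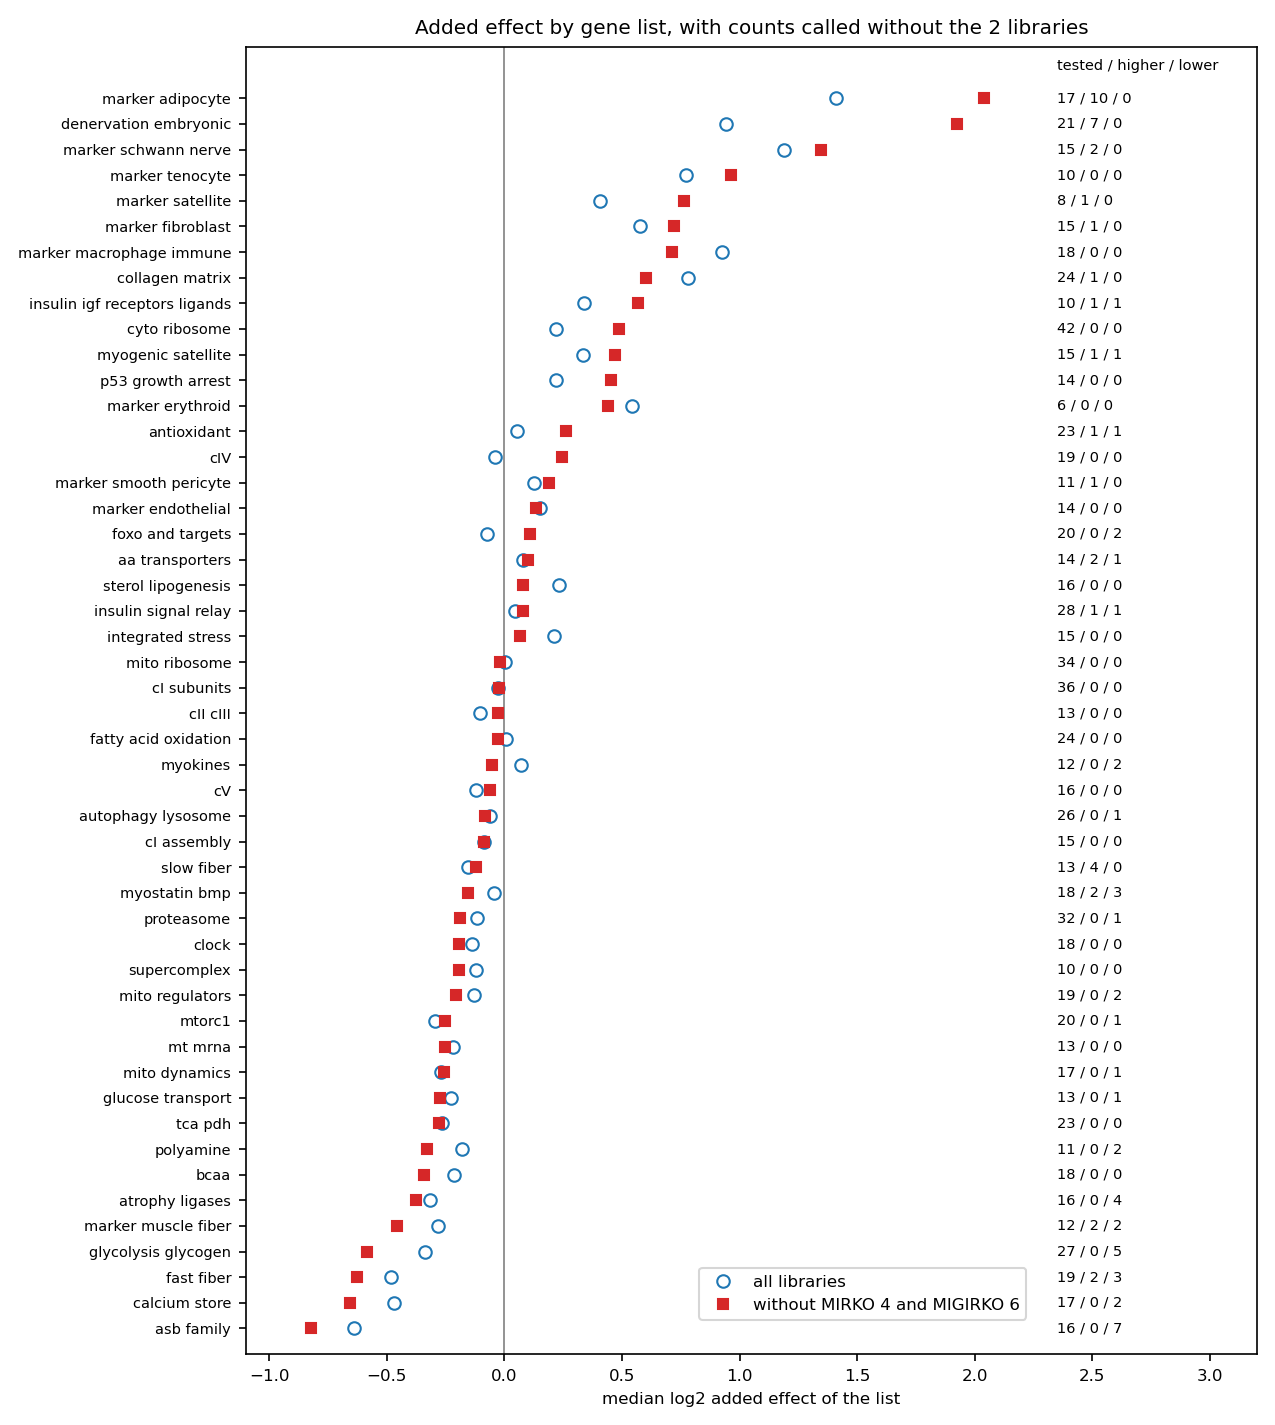
Median added effect of each gene list on the log2 scale, as open circles for all libraries and squares without MIRKO 4 and MIGIRKO 6, with the genes tested and called higher and lower at the right. Adipocyte markers (2.04) and denervation genes (1.92) lie highest and the Asb family (-0.82) lowest, and the complex I subunits lie at -0.02. In the labels, cI to cV are respiratory complexes, mt mrna the mitochondrial mRNAs, bcaa branched-chain amino acid breakdown and aa amino acid.

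Whether the added effect exceeded what IGF-1 receptor loss does alone was tested by subtracting the change in MIGF1RKO muscle, which lacks the IGF-1 receptor only (n = 5), against its IGFRlox controls (n = 4). The driver of its Cre is not named in the design text. That change was called for 84 genes (0.616%) with all libraries and 164 (1.22%) without the 2, where 0.542% were higher. With all libraries 0 genes departed from additivity in edgeR's quasi-likelihood test, 895 had an unadjusted p under 0.05, and DESeq2 called 1. Without MIRKO 4 and MIGIRKO 6, 51 (0.379%) were called, 18 higher (0.134%) and 33 lower (0.245%). Padi2 departed by 1.47 ± 0.22, Asb15 by -2.40 ± 0.37 and Acsl6 by -1.83 ± 0.31 (adjusted p = 0.0018, 0.0018 and 0.0045), and the MIGF1RKO changes of all 3 were not called (-0.12 for Padi2, 0.42 for Asb15 and -0.45 for Acsl6).

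Chrna1 and Igf2 showed another order. Their added effects of 2.49 and 3.04 stood beside MIGF1RKO changes of 2.26 and 1.67 (adjusted p = 0.00040 and 0.016 in edgeR's quasi-likelihood test without the 2 libraries). Their departures from additivity were 0.22 ± 0.60 and 1.37 ± 0.67 and were not called (adjusted p = 0.96 and 0.48). Lrtm1, a leucine-rich repeat membrane protein, was raised in MIGF1RKO by 1.09 and had an added effect of -1.04 ± 0.30, which gave a departure of -2.14 ± 0.35 (adjusted p = 0.0032). Its added effect (adjusted p = 0.046) ended without any 1 of 10 libraries, the largest adjusted p being 0.32 without MIRKO 2. The others were IRlox 1, 2 and 3 (0.15, 0.059 and 0.063), IRIGFRlox 1, 2 and 3 (0.10, 0.056 and 0.097) and MIGIRKO 3, 4 and 5 (0.062, 0.053 and 0.069).

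The floxed controls entered every added effect. IRIGFRlox minus IRlox had 0 calls with all libraries in edgeR's quasi-likelihood test, 1274 genes with an unadjusted p under 0.05 and 21 called by DESeq2, and 11 (0.0817%) were called without the 2 knockout libraries, 7 higher (0.052%) and 4 lower (0.0297%). For Padi2, Chrna1, Kcng4, Rxrg and Phka1 the floxed difference lay between -0.28 and 0.26, smaller than the direct difference of each, which ran from 1.53 to 2.67 in size. For Fbxo32, Adipoq and Cdo1 it was 1.01, -1.60 and -1.26, next to direct differences of -0.77, 0.93 and 1.60. Gaps between the controls were not confined to these genes. Car5b had 7.27 to 7.64 CPM in IRlox and 1.53 to 2.78 in IRIGFRlox, and Cidec 25.4 to 32.8 and 7.7 to 10.5. Asb2 had 456 to 650 and 880 to 1300 CPM, and Tfcp2l1 20.8 to 29.6 and 42.1 to 59.1. All genes named here are examples, and genes of either kind were not counted.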

How the data were processed

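Total RNA of muscle was extracted with Trizol and made into stranded libraries with a directional kit, 48 to a pool, per the labels' protocols. Reads were aligned with STAR to GRCm38.p4 and counted with featureCounts, per the submitters' processing notes; versions, annotation and strand setting are not given in the sources used here, so reads of a gene and an antisense partner may not be told apart, and near-identical copies such as Amd1 and Amd2 are uncertain. The deposited table holds raw counts of 46071 genes, and 45143 IDs matched a symbol. Replicate numbers only name libraries, and where nothing names separate mice p-values measure the spread between these samples.

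Tests on the counts ran in edgeR 4.0.16 under R 4.3.3 (filterByExpr with a minimum count of 10, TMM, robust quasi-likelihood fit of 34 libraries in 8 groups), and limma 3.58.1 and DESeq2 1.42.0 served as alternatives. SE is the size of the log2 value over the square root of F, list means use log2 CPM with a prior count of 2, and figures were drawn with matplotlib 3.10.9. Alternatives were other scaling, tests, filters, the 6 runs of library numbers as a block, fits to the compared groups, and leaving out libraries. On simulated data for all libraries with 13303 genes, the added effect was recovered for 28.4% of 67 genes changed 2-fold and 69.7% of 66 changed 4-fold.

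The members and the 49 lists (903 entries) were chosen with earlier results of these data known. Named genes were the targeted genes and FoxO1, 3 and 4, up to 12 called genes in each direction by size with all libraries (none was called), up to 12 in each direction by adjusted p without the 2 libraries, up to 3 called genes per list or else the 1 with the smallest p, and up to 5 that departed from additivity. Chosen after their values were seen were called list genes without the 2 libraries, the Asb family, Lrtm1 and other genes departing from additivity without them, Nnt, Adipoq, Plin1, and the list members named beyond these, such as Igf1, Irs1, Irs2 and Akt2. Genes of the other 18 libraries entered the fit but are not described here, and a few genes that the rule would name are not reported here.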

Additional observations from a re-analysis of the deposited data

Results flagged for a closer look

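Within groups of 4 to 6 libraries, 244 sets of values of named genes and lists were tested with Dixon's criterion, and 28 (11.5%) held a library far from the others, where chance gives about 1 in 20 for values not chosen for it. Most of these genes were chosen because they were called without MIRKO 4 and MIGIRKO 6, so that rate does not apply to them, and finding these libraries apart restates the choice. MIRKO 4 was that library in 9 sets and MIGIRKO 6 in 12. MIRKO 4 stood high at 144 CPM for Foxo3, 785 for Padi2, 43.7 for Mirg, 9.34 for Retn, 18.8 for Kcne1l, 300 for Myh8 and 80.2 for Cidec, and at a mean of 6.44 log2 CPM for the denervation list and 3.85 for the myogenic list.

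MIGIRKO 6 stood low at 23.1 CPM for Etv5 and 174 for Padi2, and high at 19.0 for Acsl6, 201 for Smtnl2, 36.6 for Eepd1, 17.1 for Kcng4, 24.4 for Rxrg and 20.0 for Slc40a1. Its list means were 6.18 log2 CPM for insulin and IGF receptors and ligands, 4.87 for the denervation list, 3.45 for the myogenic list and 5.80 for the p53 and growth arrest list.

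Other libraries stood apart once or more. They were MIRKO 2 for Bckdhb (14.8 CPM), MIRKO 1 for erythroid markers (2.42 log2 CPM), MIGIRKO 1 for Retn (20.5 CPM) and endothelial markers (5.04 log2 CPM), MIGIRKO 4 for Sdha (801 CPM) and Casq2 (83.9 CPM), and MIGIRKO 5 for Phgdh (12.2 CPM). Differences between the genotypes' changes were called by edgeR's quasi-likelihood test without MIRKO 4 and MIGIRKO 6 for 457 genes in the added effect and for 51 genes in the departure from additivity.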

How the results depend on the processing

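For the added effect, 0 genes were called with all libraries, 39 with DESeq2 (5 higher, 34 lower), 457 with MIRKO 4 and MIGIRKO 6 left out, and 0 under size factors, library totals, limma-voom, no filter, a CPM filter, the run block and the compared groups alone. Leaving out 1 library gave 0 to 145 (without MIRKO 4). For the direct difference (0 called) these were 88 with DESeq2, 2 with no filter, 1106 without the 2 libraries and 0 to 529 with 1 library left out. The MIRKO effect (170 called) gave 371 with DESeq2, 279 with library totals, 102 with no filter, 74 with the run block, 9 with the compared groups alone, 33 without the 2 libraries and 13 to 368 with 1 left out. The MIGIRKO effect (4603 called) gave 7002 with library totals and 3109 to 4542 with 1 left out. The departure from additivity (0 called) gave 1 with DESeq2, 1 with no filter, 3 with the run block, 51 without the 2 libraries and 0 to 3 with 1 left out. The floxed control difference (0 called) gave 21 with DESeq2, 4 with no filter, 88 with the compared groups alone, 11 without the 2 libraries and 0 to 2 with 1 left out. The cause was not tested.

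Without MIRKO 4 and MIGIRKO 6 the 457 calls of the added effect became 383 to 647 under the other settings, which were chosen after seeing the data, and 258 to 480 with 1 further library left out, the lowest being IRlox 1 (258), MIRKO 2 (262), IRIGFRlox 1 (280) and IRIGFRlox 3 (284). Library totals moved the median of all genes by 0.28 and the split from 172 higher and 285 lower to 327 higher and 133 lower. Under that scaling the complex I median became 0.27. Of 79 named genes called without the 2 libraries 49 kept their call in every setting run, and no named gene changed direction where it was called. No paired analysis was possible because a replicate number here only names a library within its group, so no mice are paired. Blocking on the runs of library numbers, which is not a pairing of mice, gave 428 calls without the 2 libraries. Small changes are largely out of reach: on simulated data 7.46% of 1.5-fold added effects were recovered with all libraries and 5.97% without the 2.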

Other observations

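Genes outside the groups described so far also had an added effect without MIRKO 4 and MIGIRKO 6. Amd1, the enzyme that makes the aminopropyl donor for polyamines, had 322, 519 and 503 CPM in IRlox and 165, 303 and 120 in MIRKO 1 to 3. IRIGFRlox had 857, 546 and 920 CPM and MIGIRKO 1 to 5 had 27.6 to 66.3. Every MIGIRKO library lay below every library of IRlox, IRIGFRlox and MIRKO 1 to 3, and the added effect was -2.98 ± 0.65 (edgeR's quasi-likelihood test, adjusted p = 0.0093), and -2.38 ± 0.72 with all libraries (adjusted p = 0.25), although reads may be split with the near-identical Amd2 (-2.54 ± 0.51). The polyamine list had 2 of 11 genes called lower, these same 2, where 2.12% of all genes were called lower.

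Tbc1d1, a regulator of glucose transporter traffic, had 34.2 to 51.2 CPM in MIRKO 1 to 3 and 16.3 to 25.8 in MIGIRKO 1 to 5, with an added effect of -1.82 ± 0.37 (adjusted p = 0.0039 in edgeR's quasi-likelihood test). Its controls had 82.6, 40.5 and 38.4 CPM in IRlox and 74.9, 68.1 and 117 in IRIGFRlox, so that MIRKO 1 to 3 overlapped IRlox. Jph2, which holds the calcium store at the surface membrane, had 523 to 716 CPM in MIRKO 1 to 3 and 277 to 396 in MIGIRKO 1 to 5 (-1.32 ± 0.26, adjusted p = 0.0031). Its controls had 588, 612 and 766 CPM in IRlox and 1080, 848 and 742 in IRIGFRlox. The added effects of both genes include these differences between the controls. With all libraries Tbc1d1 and Jph2 had -1.47 ± 0.40 and -0.98 ± 0.31 (adjusted p = 0.25 and 0.27). The cytosolic ribosomal proteins had 0 of 42 called by edgeR's quasi-likelihood test, none at an unadjusted p under 0.05, and a median of 0.49, against 0.22 with all libraries. That median was 0.21 without MIRKO 2, 0.28 without MIGIRKO 1, 0.32 without MIRKO 3 and 0.87 without MIRKO 1.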
